A study of Mus musculus with 12 samples.

Results

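Laminins are cross-shaped proteins of the basement membrane, each built from an α, a β and a γ chain that assemble inside the cell before secretion. The α chain carries the globular domains that bind integrins and dystroglycan at the cell surface, while the short arms of the chains link laminins to one another and, through γ chains, to nidogens. Fibroblasts secrete laminins, among other matrix proteins, and do not lay down a continuous basement membrane in culture.

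The genes described here were 9 laminin chain genes, Lama1, Lama2, Lama3, Lama4, Lama5, Lamb1, Lamb2, Lamb3 and Lamc1, among 24062 gene symbols in the count table. They were chosen by name, with the differences between the conditions of these same libraries in view, so all differences of these 9 genes between conditions are given as descriptions and none is used as a test. Where calls among them are counted below, nothing is read from those calls. Each of the 9 was present in the table, and 8 passed the filter on low counts that left 12154 genes for testing. Lama1 did not pass. Lamc3, another γ chain gene, was not among the 9. It had raw counts of 1 to 12 and was not tested.

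RNA was sequenced from mouse embryonic fibroblasts (MEFs) that carried either a control hairpin against Renilla luciferase (shRenilla) or a hairpin against Birc6, the gene for the ubiquitin-conjugating enzyme BRUCE (shBruce). Both hairpins were delivered by a retrovirus with neomycin selection. The study screened its hairpins in a single MEF clone with the mCherry-EGFP-LC3B autophagy reporter, and its RNA-seq methods do not say whether the sequenced lines came from that clone. Each line was kept in full medium (FM) or moved for 2 h to medium lacking serum and amino acids (Starv), with 3 libraries for each of the 4 conditions. A single line stood for each hairpin, so the effect of losing BRUCE and any other difference between the lines cannot be told apart, and nothing in the labels says whether the replicates were separate cultures. The smallest library, shBruce Starv library 1, held 7717265 counts and the largest 18510540, of which the 9 genes took between 0.0732% and 0.136%.

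Birc6 itself had normalized counts of 4682, 3273 and 5061 in shRenilla FM and 1207, 1265 and 1390 in shBruce FM. In Starv the values were 4759, 4712 and 2787 in shRenilla and 1175, 703 and 1226 in shBruce, so the lines did not overlap in either medium. Normalized counts here are raw counts put on the scale of the average library by TMM factors and totals. Of the fibroblast markers 12 of 14 passed the filter, against 1 of 9 epithelial (Krt19), 1 of 7 endothelial (Kdr), 1 of 6 muscle (Des) and 2 of 5 macrophage markers (Ptprc, Cd68). Summed endothelial markers lay between 37.6 and 40.0 in shRenilla FM and between 6.94 and 23.0 in shBruce FM, and their part in the results below was not tested.

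The shBruce Starv libraries differed more among themselves than those of other conditions. The median absolute log2 deviation of a gene from its condition's mean was 0.248, 0.154 and 0.253 in these 3 libraries, against 0.0693 to 0.131 in the other 9. Long transcripts also ran lower in shBruce. Among the 1207 tested genes of the longest decile (transcripts of at least 6803 bases) the median log2 difference between shBruce and shRenilla was −0.27 in FM and −0.47 in Starv, and among the 1207 genes of the shortest decile (at most 1411 bases) it was 0.25 and 0.56. The 9 laminin genes have longest transcripts of 4867 to 11388 bases, so differences are given below also after the trends with transcript length and GC content were removed from each library.

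The hairpin is shown first because a guide strand can also lower transcripts that match only its seed, bases 2 to 8 counted from the 5′ end. The guide of the shBruce hairpin, from the study's list of designed hairpins, is written 5′ to 3′ with the seed in capitals. Beneath it are its fully matching site in Birc6 (GRCm38, chr17:74548787-74548808, + strand) and the 22 bases that would lie opposite it at both seed matches of Lamc1 (chr1:153221326-153221347 and chr1:153218972-153218993, − strand, 3′ UTR), with the seed complement GTTTAAA in capitals.
Guide: tTTTAAACcatctttgagctgt
Birc6 site: acagctcaaagatgGTTTAAAa
Lamc1 first site: caagaaaagtcagaGTTTAAAg
Lamc1 last site: tggcatttttttatGTTTAAAa
The Birc6 site pairs with 22 of 22 guide bases, and the Lamc1 sites pair with 11 and 9 of them. Among the longest coding transcripts of 11626 tested genes, 18.8% held the seed complement in the 3′ UTR and 23.7% anywhere. The longest coding transcripts of Lama4, Lama5, Lamb1, Lamb2 and Lamb3 held none. Lama1 held 1 in its 3′ UTR, and Lama2 and Lama3 held 1 outside it. A match is a description of letters and not a site of action.

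Promoters are shown for the most abundant α chain gene and for Lamb1, which with Lamb2 led the β chain genes, since levels of both moved with Lamc1 from library to library. Entries of the RefSeq promoter table (GRCm38.p6) were used for 5 of the 9 genes, Lama2, Lama5, Lamb1, Lamb2 and Lamb3. Lama3 was left out of this search, so whether it has an entry is not given here. The sequences run 5′ to 3′ on the gene's strand from 250 bases before the RefSeq start, without bases that GENCODE counts as exon, and capitals mark the GC box (GGGCGG or its reverse complement CCGCCC). The Lama5 stretch lies at chr2:180225860-180226109 on the − strand and the Lamb1 stretch at chr12:31265043-31265233 on the + strand.
Lama5: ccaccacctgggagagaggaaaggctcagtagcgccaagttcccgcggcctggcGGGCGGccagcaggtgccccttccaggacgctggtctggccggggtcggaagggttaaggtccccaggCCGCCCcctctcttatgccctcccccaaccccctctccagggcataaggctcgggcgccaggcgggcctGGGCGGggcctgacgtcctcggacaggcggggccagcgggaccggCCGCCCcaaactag
Lamb1: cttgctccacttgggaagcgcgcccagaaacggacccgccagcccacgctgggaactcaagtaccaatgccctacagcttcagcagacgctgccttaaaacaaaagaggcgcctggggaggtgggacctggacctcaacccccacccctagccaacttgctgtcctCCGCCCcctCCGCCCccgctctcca
The Lama5 stretch held 4 GC boxes and the Lamb1 stretch 2, whereas the 250 bases before the starts of Lama2, Lamb2 and Lamb3 held none. A GC box was present in 32.7% of all 32851 promoter windows. GC content of the 250 bases was 72.4% for Lama5 and 62.0% for Lamb1. It was 58.8% and 61.2% in the windows of Lamb3, 43.6% for Lamb2 and 47.2% for Lama2, with a median of 52.4% over all windows. The RefSeq windows of Lama2 and Lamb3 lie within the GENCODE bounds of these genes, and those of Lamb1 and Lamb2 do so in part.

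The laminin transcripts of these MEFs came chiefly from Lamc1, Lamb1, Lamb2 and Lama5. In shRenilla FM, Lamc1, which encodes the γ chain of most laminins (chr1:153218922-153332786), stood at 812 ± 86.3 normalized counts per kb of exon (SD, n = 3). The β chain genes Lamb1 (chr12:31265234-31329644) and Lamb2 (chr9:108479736-108490530) followed with 514 ± 22.7 and 478 ± 22.7 per kb, and their libraries overlapped. Lamb1 encodes the widespread β chain, and Lamb2 the chain prominent at the neuromuscular junction and the kidney filter. Lama5 (chr2:180176373-180225859), the gene for a broadly expressed α chain, reached 336 ± 26.5 per kb. Lamc1 lay apart from Lamb1, and Lamb2 from Lama5, in every library.

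Lama4 and Lamb3 formed a much lower tier. Lama4 (chr10:38965515-39110188), which encodes a short-armed α chain of vascular and mesenchymal tissue, had 26.3 ± 2.59 normalized counts per kb in shRenilla FM. Lamb3 (chr1:193207699-193343878), the gene for the β chain of the epidermal laminin, had 22.3 ± 3.31, and its libraries overlapped those of Lama4. Lama2 and Lama3 were near the limit of detection. Lama3, the α chain gene of the epidermal laminin, had 1.26 ± 0.671 per kb, and Lama2 (chr10:26980036-27619758), the α chain gene of muscle and peripheral nerve, had 0.755 ± 0.211. Lama1 (chr17:67697259-67822647), best known from the early embryo, had raw counts of 0 to 5 with 5 libraries at 0, where the limit that 3 counts set was 0.162 to 0.389 CPM (counts scaled to library totals). Positions are those of GRCm38 with GENCODE M21. Exons of Lama2 and Lama3 share 631 and 197 bases with antisense genes that the count table does not list, and whether counting used strand is not given in the sources used here.

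The order of the leading genes depended on condition and on the length used. In shBruce Starv, Lamb2 stood first with 479 ± 45.5 normalized counts per kb of exon, ahead of Lamc1 with 451 ± 238, Lamb1 with 334 ± 140 and Lama5 with 263 ± 80.0, and each neighbouring pair overlapped. In shBruce FM, Lamc1 was apart from Lamb2, and Lama4 ranked below Lamb3 and lay apart from it. Per kb of coding sequence Lamc1 ranked first and Lamb1 above Lamb2 in all 4 conditions, although Lamb1 and Lamb2 overlapped in shBruce Starv.

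**Figure D1:**
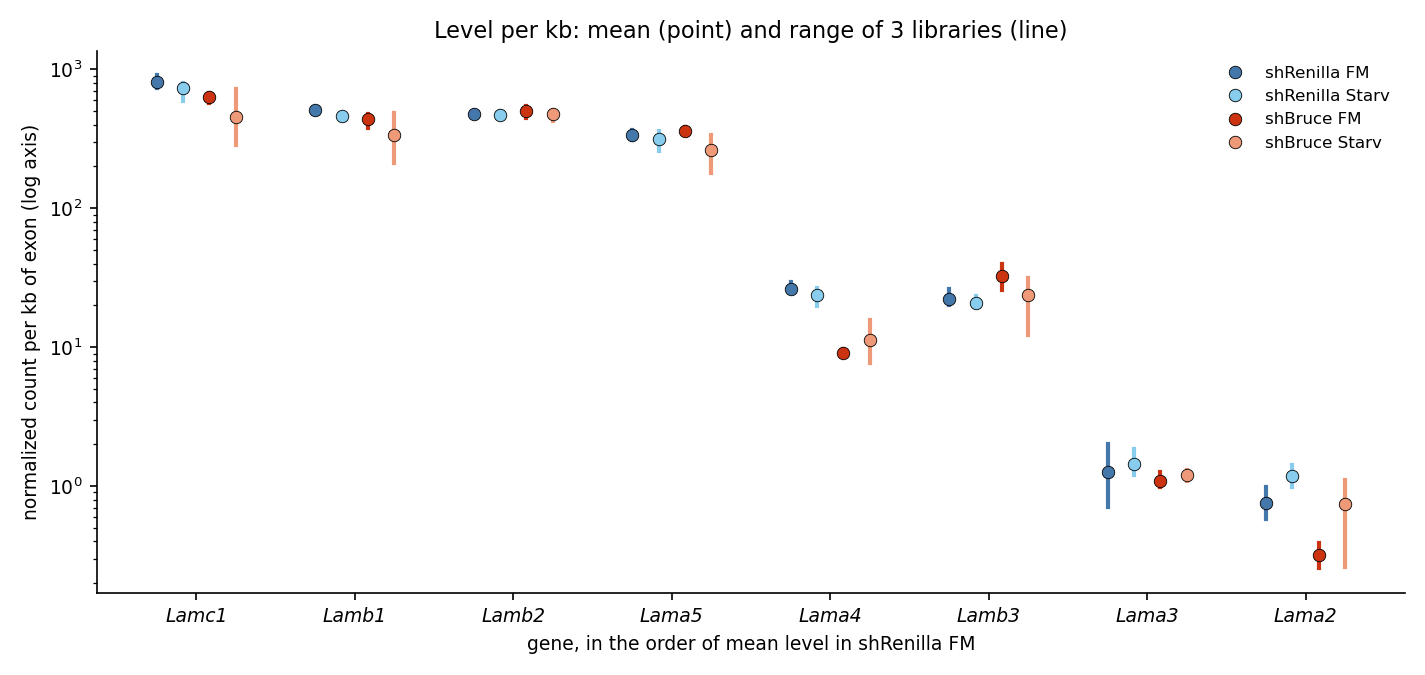
Normalized counts per kb of exon (log axis) for 8 of the 9 laminin chain genes in the 4 conditions, with points at the mean and lines over the range of 3 libraries. Lamc1, Lamb1, Lamb2 and Lama5 form the upper tier in every condition, and Lama4 moves from 26.3 in shRenilla FM to 9.05 in shBruce FM; Lama1 is not drawn.

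Lama4 was the laminin gene that stood furthest apart between the lines. Its normalized counts were 298, 302 and 354 in shRenilla FM and 106, 116 and 105 in shBruce FM. In Starv they were 324, 294 and 237 in shRenilla and 121, 92.8 and 190 in shBruce. Every shBruce library lay below every shRenilla library in both media, and shBruce Starv library 3 was the highest of its line. The fitted level in shBruce was 2.91-fold lower in FM (log2 difference −1.54, SE 0.22, 95% confidence interval −2.02 to −1.06) and 2.10-fold lower in Starv (−1.07, SE 0.22, −1.55 to −0.59). With length and GC trends removed the log2 differences were −1.37 (−1.70 to −1.03) and −0.80 (−1.13 to −0.46). Without shBruce Starv library 3 the difference in Starv was −1.44, and without library 2 it was −0.85.

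Lama4 and Lama5 kept nearly fixed proportions among replicates, except in shBruce Starv, where they spread more. Per kb of exon, Lama4 made up 7.31%, 6.98% and 7.40% of α chain counts in shRenilla FM and 6.92%, 6.70% and 7.05% in shRenilla Starv. In shBruce the share was 2.47%, 2.43% and 2.48% in FM and 3.53%, 4.07% and 4.41% in Starv. The 3 libraries of a condition lay close together except in shBruce Starv, where library 1 held only 60 raw counts of Lama4. All shBruce libraries stayed under every shRenilla library, including shBruce Starv library 3. Lama5 supplied nearly all of the rest, on average 92.2% and 92.3% in shRenilla FM and Starv and 97.1% and 95.1% in shBruce FM and Starv. On the log2 scale the ratio of Lama4 to Lama5 normalized counts averaged −3.59 ± 0.051 in shRenilla FM, −3.66 ± 0.043 in shRenilla Starv, −5.22 ± 0.018 in shBruce FM and −4.49 ± 0.165 in shBruce Starv (SD, n = 3). Per kb of coding sequence the mean shares of Lama4 were 14.4%, 13.8%, 5.18% and 8.28% in the same order.

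**Figure D2:**
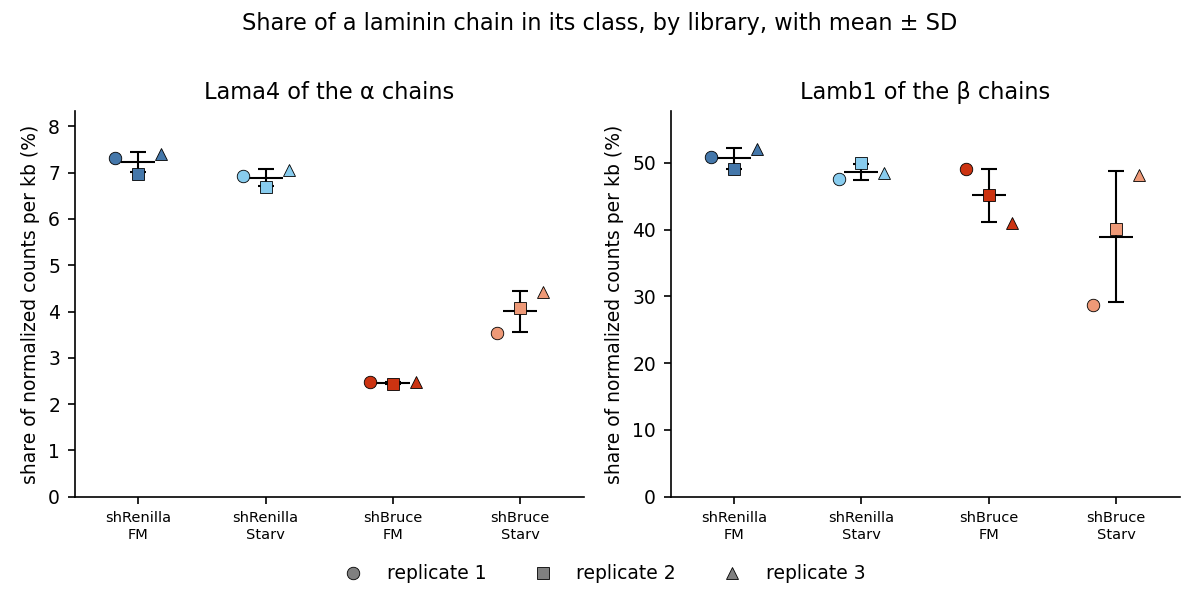
Share of Lama4 among α chain genes and of Lamb1 among β chain genes, in percent of the class's normalized counts per kb of exon, for each library (points) with mean ± SD of 3 libraries. Lama4 lies between 6.70% and 7.40% in shRenilla and between 2.43% and 4.41% in shBruce, while Lamb1 spreads from 28.7% to 48.2% within shBruce Starv.

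Lama5 did not share the direction of Lama4 in FM. Its normalized counts were 3544, 3782 and 4143 in shRenilla FM and 3939, 4393 and 3881 in shBruce FM, which overlapped (log2 difference 0.09, interval −0.33 to 0.51). In Starv they were 4075, 3842 and 2921 in shRenilla and 3082, 2050 and 3867 in shBruce, and the libraries overlapped again. The difference in Starv was −0.27 (−0.69 to 0.15), moving to −0.50 without shBruce Starv library 3 and to −0.06 without library 2.

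Lama2, at a few counts per library, lay lower in shBruce FM. Its normalized counts were 11.4, 9.43 and 16.1 in shRenilla FM against 6.37, 4.19 and 4.96 in shBruce FM, from raw counts of 10 to 18 and of 4 to 6. The log2 difference was −1.24 (SE 0.47, interval −2.26 to −0.22), or −0.94 with length and GC trends removed. In Starv the counts were 23.1, 19.0 and 16.2 in shRenilla and 18.2, 4.27 and 13.9 in shBruce, where the groups overlapped and the interval reached from −1.64 to 0.09. Lama3 overlapped between the lines in both media, with normalized counts of 7.54 to 21.5 in shRenilla and 10.6 to 14.1 in shBruce.

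Of the β and γ chain genes, Lamb1 and Lamc1 were lower in each shBruce FM library than in any shRenilla FM library, by small amounts. Lamc1 had 6600, 6072 and 7484 normalized counts in shRenilla FM and 4723, 5326 and 5587 in shBruce FM, a log2 difference of −0.37 with an interval from −0.95 to 0.21. In Starv it had 6587, 6646 and 4885 in shRenilla and 2850, 2363 and 5984 in shBruce. Here shBruce libraries 1 and 2 were far below the control line, and library 3 fell inside its range. The log2 difference in Starv was −0.69 (−1.28 to −0.11), −0.46 with length and GC trends removed, −1.22 without shBruce Starv library 3 and −0.45 without library 2.

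Lamb1 followed the same outline. It had 4903, 5042 and 5343 normalized counts in shRenilla FM against 4614, 4767 and 3761 in shBruce FM, and 4755, 4661 and 4367 in shRenilla Starv against 2095, 3031 and 4821 in shBruce Starv. In shBruce Starv, libraries 1 and 2 lay below the control range and library 3 just above it. The log2 difference was −0.22 (−0.70 to 0.26) in FM and −0.47 (−0.95 to 0.01) in Starv, where it became −0.84 without shBruce Starv library 3 and −0.24 without library 1.

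Lamb2 was the steadiest of the abundant chains. It ranged from 2593 to 3301 normalized counts over all 12 libraries, and the intervals of its differences between the lines were −0.17 to 0.33 in FM and −0.22 to 0.28 in Starv. Its share of β chain counts per kb of exon averaged 47.1%, 49.1%, 51.6% and 58.0% in shRenilla FM, shRenilla Starv, shBruce FM and shBruce Starv, with 67.7% in shBruce Starv library 1 where Lamb1 was lowest. Lamb3 pointed the other way in FM, with 137, 173 and 133 normalized counts in shRenilla and 210, 264 and 172 in shBruce. The ranges overlapped only between 172 and 173, and the log2 difference was 0.55 (−0.05 to 1.14). In Starv, Lamb3 overlapped widely, with 80.8 to 207 in shBruce and 129 to 156 in shRenilla.

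**Figure D3:**
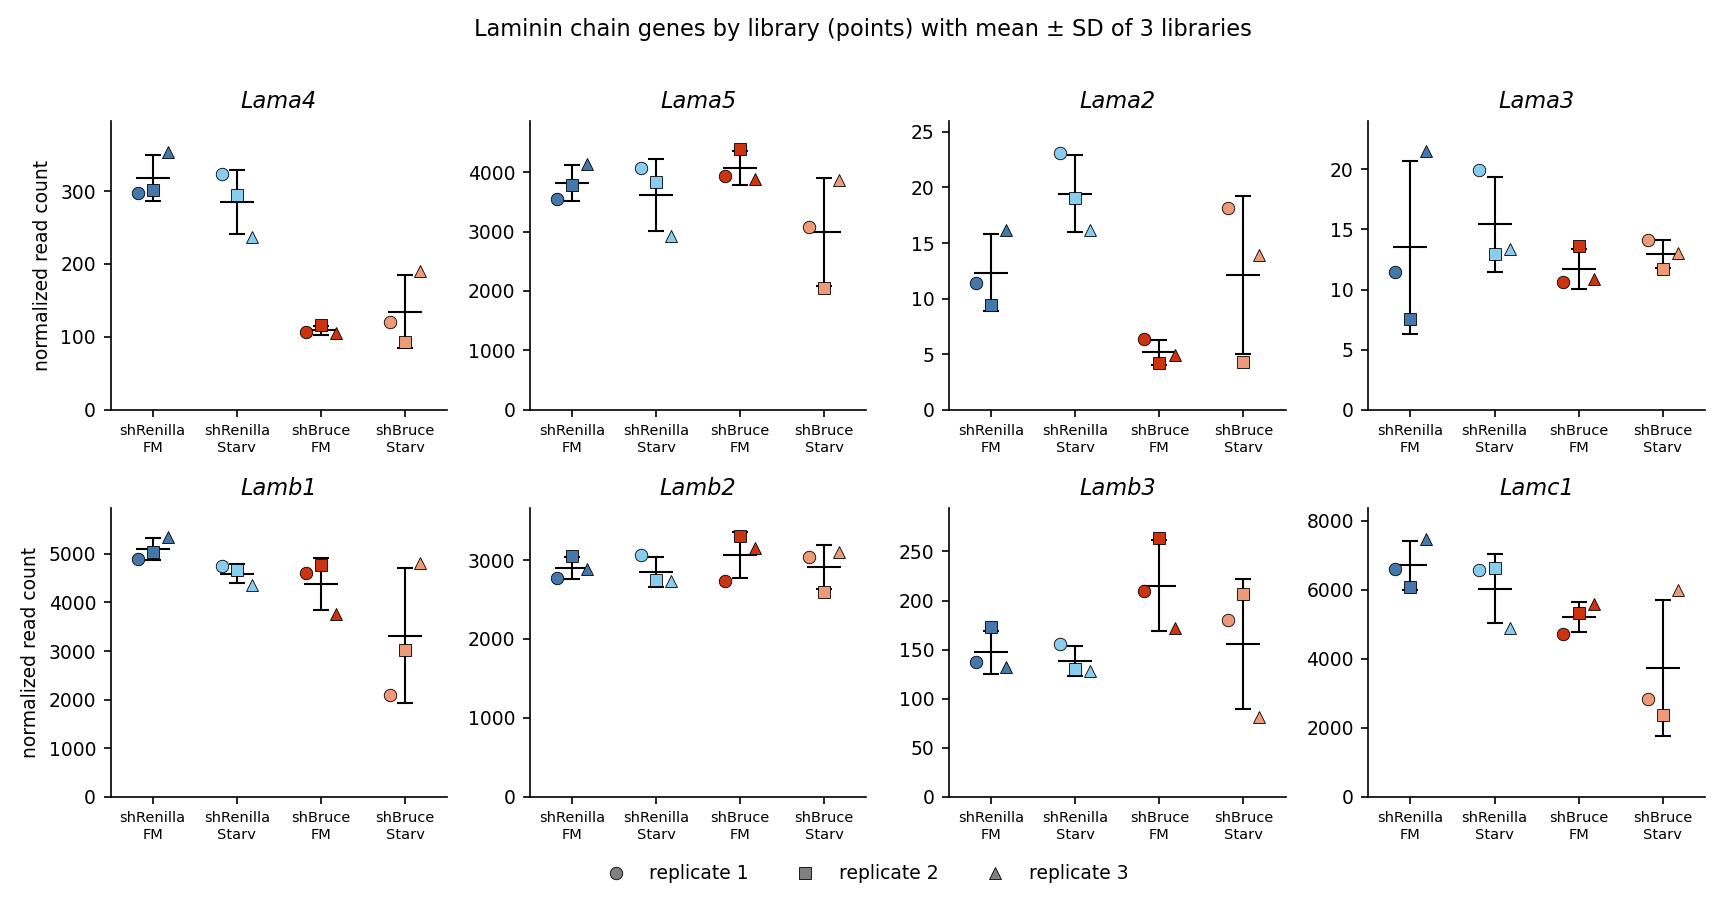
Normalized read counts of the 8 laminin chain genes that passed the filter in each library (points; shape gives the replicate), with mean ± SD of 3 libraries per condition and axes starting at 0. Lama4 separates the lines in both media, and in shBruce Starv library 3 is the highest of the 3 for Lama4, Lama5, Lamb1, Lamb2 and Lamc1 and the lowest, at 80.8, for Lamb3.

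The counts of laminin genes are set here beside those over all genes. In FM none of the 8 tested genes passed an adjusted p of 0.05 in edgeR's quasi-likelihood test, and neither did any gene of the table (0.0%), although 1750 had an unadjusted p under 0.05 and DESeq2 called 76. With length and GC trends removed 2 genes passed in FM, Lama4 and the hairpin's own target Birc6. In FM Lama4 passed in 7 of 22 alternatives and Birc6 in 8. In Starv 1 laminin gene passed, Lama4, where 23.9% of all genes did. Averaged over both media 3 passed, Lama2, Lama4 and Lamc1, all lower in shBruce, where 32.1% of all genes passed. Lama2 and Lamc1 did not pass with length and GC trends removed, and passed in 12 of 20 and 8 of 21 alternatives. Since these contrasts were in view when the genes were chosen, nothing is read from these counts. Without overlap of the libraries, 4 laminin genes were lower in shBruce FM (Lama2, Lama4, Lamb1 and Lamc1) and 1 in shBruce Starv (Lama4), against 33.4% and 34.9% of all genes in either direction. Only Lama4 of the 8 was lower without overlap in both media, as were 8.43% of all genes. The median log2 difference of the 8 was −0.21 in FM and −0.37 in Starv, beside 0.0064 and −0.0012 over all tested genes and −0.27 and −0.47 over the longest decile.

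Averaged over both media, Lama4 was 2.47-fold lower in shBruce (log2 difference −1.30, interval −1.64 to −0.97), or −1.08 with length and GC trends removed. Leaving out each library in turn gave −1.49 to −1.19, the former without shBruce Starv library 3. Lamc1 stood at −0.53 (−0.94 to −0.12), with −0.79 to −0.41 when a library was left out and −0.34 with the trends removed. Lama2 stood at −1.01 (−1.68 to −0.34), with −1.15 to −0.78 when a library was left out and −0.64 with the trends removed. As these are bulk libraries, fewer cells that transcribe a gene and less of its RNA per cell cannot be told apart.

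**Figure D4:**
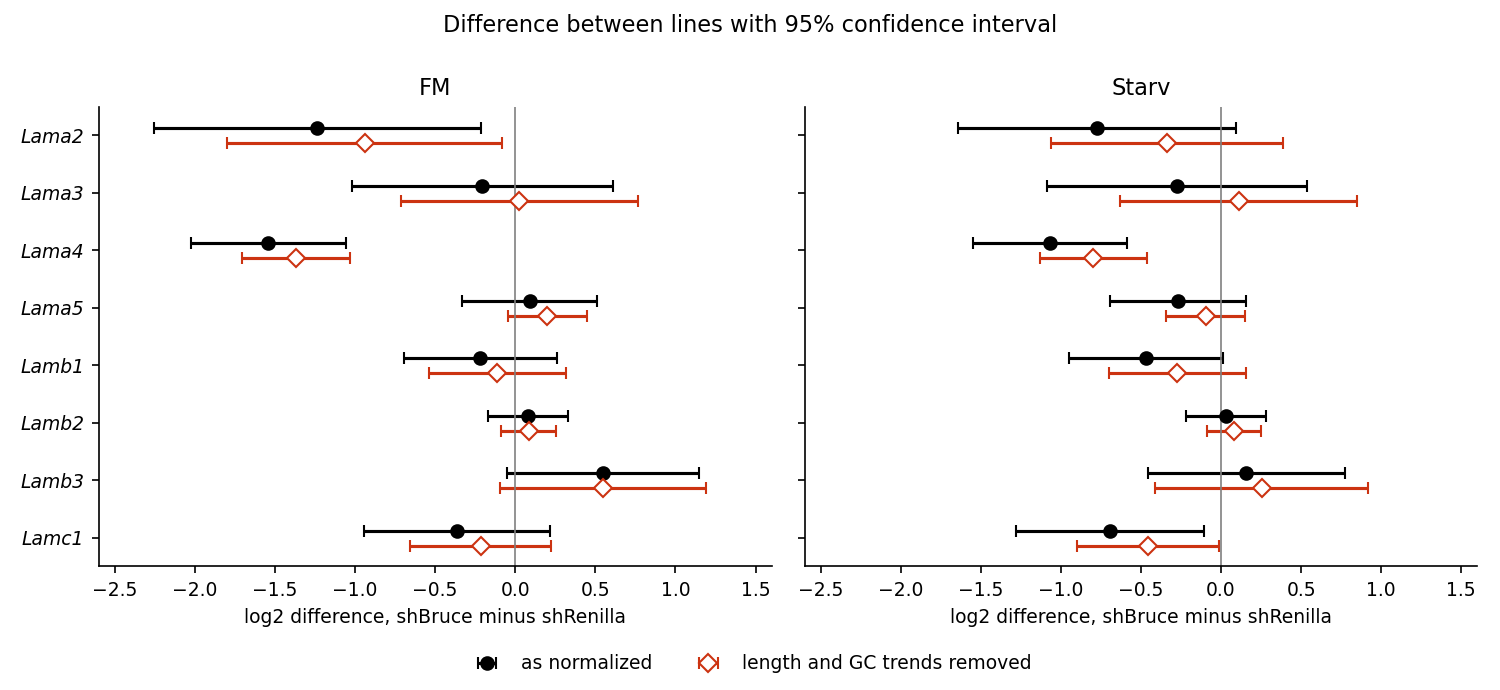
Log2 difference between shBruce and shRenilla in FM and in Starv with 95% confidence intervals, for 8 laminin chain genes, as normalized (filled circles) and with length and GC trends removed (open diamonds). The intervals of Lama4 stay below 0 in both media and both analyses, around −1.54 and −1.37 in FM and around −1.07 and −0.80 in Starv. Those of Lama3, Lama5, Lamb1, Lamb2 and Lamb3 include 0 throughout, those of Lama2 in Starv only and those of Lamc1 in FM only.

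After 2 h of starvation the laminin genes moved little in the control line. None of the 8 passed an adjusted p of 0.05 in shRenilla by edgeR's quasi-likelihood test, where 17.0% of all genes did, and their median log2 difference between Starv and FM was −0.09. Contrasts between media and the interaction were also in view when the genes were chosen, so nothing is read from counts that passed. Lama2 was higher in every shRenilla Starv library than in any FM library (log2 difference 0.66, interval −0.15 to 1.46), and Lamb1 lower (−0.15, −0.63 to 0.33), while 52.4% of all genes had no overlap in this comparison. Lama4, Lama5, Lamb2, Lamb3 and Lamc1 had differences between −0.16 and −0.03, each with an interval that included 0.

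In the shBruce line, too, none of the 8 passed in edgeR's test, beside 23.0% of all genes, and the median log2 difference was −0.24. Lama5 was lower in each shBruce Starv library than in any FM library, by −0.44 (−0.86 to −0.02), where 30.9% of all genes had no overlap. This value was −0.67 without shBruce Starv library 3 and −0.23 without library 2. It was −0.46 with length and GC trends removed, where Lama5 passed, and nothing is read from that call. Lama2 overlapped, with a difference of 1.12 (0.03 to 2.21) at raw counts of 4 to 15, and 1.56 without shBruce Starv library 2. Lamc1 differed by −0.48 and Lamb1 by −0.40, becoming −1.01 and −0.77 without shBruce Starv library 3. Lama4 stood at 0.32 (−0.18 to 0.81), and at −0.06 without that library. For the interaction of line and medium none of the 8 passed, nor did any gene (0.0%, with 474 at an unadjusted p under 0.05 and 0 called by DESeq2), and the value for Lama4 was 0.47 (−0.20 to 1.15), or 0.10 without shBruce Starv library 3. Lamb3, at 180, 207 and 80.8 normalized counts in shBruce Starv, differed from FM by −0.48 (−1.09 to 0.13), and by −0.15 without library 3. The starvation comparisons share their FM or Starv libraries with the comparisons of the lines.

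Several laminin genes varied together among replicates. After subtraction of each condition's mean, log2 CPM of Lama4 correlated with those of Lama5 at r = 0.95 and with Lamc1 at 0.95, and Lama5 with Lamc1 at 0.85 (Pearson, 12 libraries, with each library's depth and transcript length profile common to all its genes). Subtracting 4 condition means leaves fewer than 12 independent values. Deviations over all genes were largest in the shBruce Starv libraries (median absolute 0.248, 0.154 and 0.253, at most 0.131 elsewhere), and correlations without these libraries are not given. Over the 12 libraries without that subtraction, Lama4 and Lama5 correlated at only 0.36, and Lamb1 with Lamc1 at 0.86. Lamb1 and Lamb2 had r = 0.07 and 0.11 without and with subtraction, and Lamb3 ran against Lamc1 at −0.44 and −0.82. The same libraries differed in the level of long transcripts. The median log2 level of the longest decile in a library correlated, within conditions, with Lama4 at 0.90, with Lamc1 at 0.89, with Lama5 at 0.88, with Lamb2 and Lamb1 at 0.44 and with Lamb3 at −0.66. The log2 ratio of Lama4 to Lama5 correlated with it at 0.26 within conditions and at 0.68 over all 12 libraries. The part of long transcripts in these correlations was not tested beyond the removal of the trends given above.

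**Figure D5:**
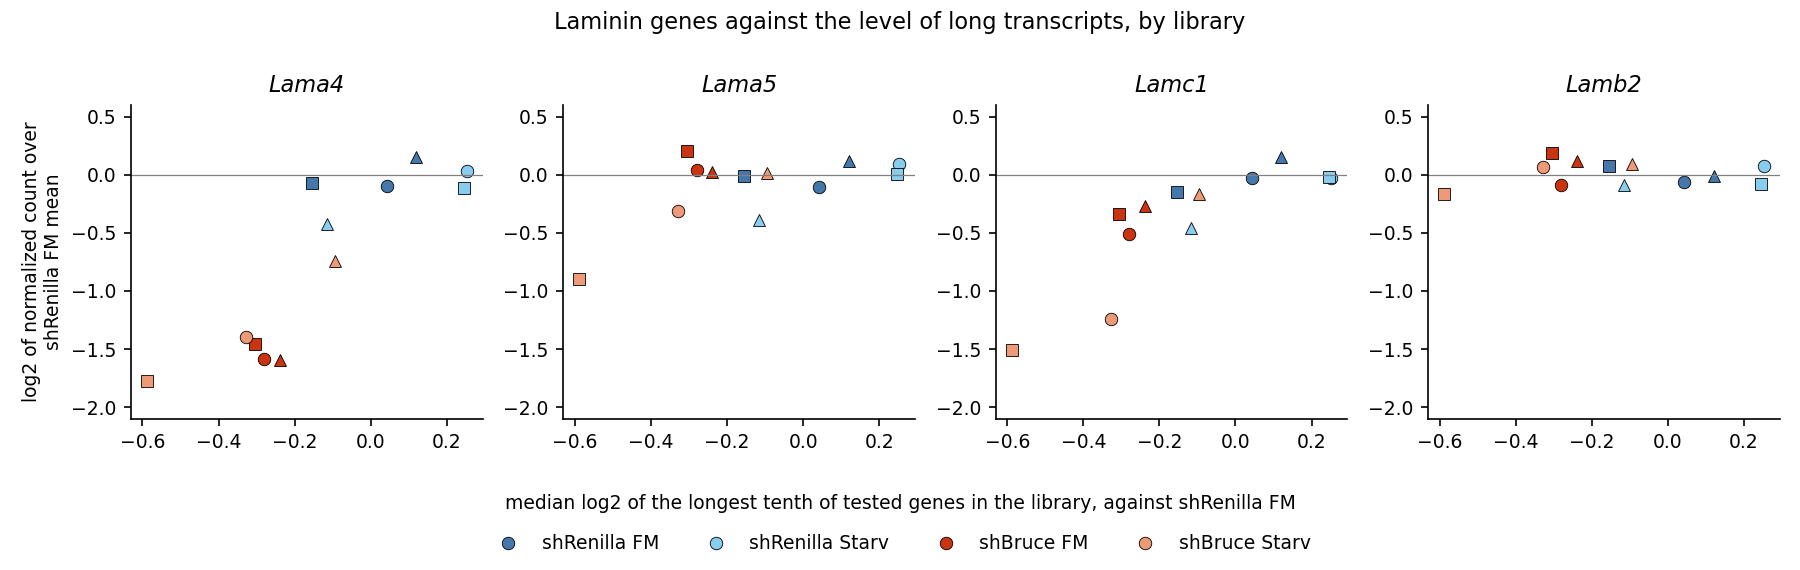
Log2 normalized count of Lama4, Lama5, Lamc1 and Lamb2 relative to the shRenilla FM mean (vertical axis) against the median log2 level of the longest decile of tested genes (horizontal axis) in each of the 12 libraries, with colour for the condition and shape for the replicate. Lama5 and Lamc1 are lowest in shBruce Starv library 2, where long transcripts are lowest at −0.59, Lamb2 stays near 0, and Lama4 forms a lower group in 5 of the 6 shBruce libraries, with shBruce Starv library 3 between the groups.

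Among 10358 other tested genes that averaged at least 50 normalized counts, the patterns closest to Lama4 over the 12 libraries were those of Zcchc6 (r = 0.946), Birc6 (0.941) and App (0.941). After subtraction of each condition's mean these were 0.87, 0.74 and 0.69. Birc6 is the hairpin's target, and any gene lower in the shBruce line, as Lama4 was, tends to correlate with it over the 12 libraries. Mean normalized counts of Zcchc6 were 1482, 1532, 1138 and 1187 in shRenilla FM, shRenilla Starv, shBruce FM and shBruce Starv, a smaller gap between the lines than that of Lama4. Closest to Lamb1 were Dhx29 (0.992), Eif4enif1 (0.986) and Tceb3 (0.986), and closest to Lamc1 were Heatr5b (0.982), Heatr5a (0.981) and Eif4ebp2 (0.978). All 6 genes had their lowest mean in shBruce Starv, as Lamb1 and Lamc1 did, a likeness that their choice by correlation over the same libraries favours.

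The proteins that hold laminins to the cell and to each other gave the setting for these chains. Lists of receptor and other partner genes were, like the laminin genes, chosen with earlier results of these data known. The counts covered 22 laminin receptor genes, of which 19 were tested. None differed between the lines in FM by edgeR's adjusted p, nor did any gene of the table (0.0%). Of the 64 tested partner genes of all lists, 13 had an unadjusted p under 0.05 and 2 were called by DESeq2. In Starv 5 receptor genes of 19 were lower in shBruce and none higher, where 23.9% of all genes passed. They were Itga1 (log2 difference −1.32, SE 0.36, adjusted p = 0.0282), Itgav (−0.80, SE 0.17, adjusted p = 0.0225), Itgb1 (−0.61, SE 0.14, adjusted p = 0.0225), Dag1 (−0.46, SE 0.14, adjusted p = 0.0352) and Itga7 (−0.40, SE 0.13, adjusted p = 0.0375). Itgb1 encodes the integrin β chain shared by most laminin-binding integrins, and Dag1 encodes dystroglycan. Itgb1 had 16740, 17710 and 16080 normalized counts in shRenilla Starv and 9110, 11020 and 12970 in shBruce Starv, without overlap. With length and GC trends removed only Itgb1 and Itga7 still passed, and without shRenilla Starv library 1 or 2, or shBruce Starv library 2, no partner gene passed in this comparison.

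Starvation lowered some receptor genes in each line. In shRenilla 3 of 19 fell and 1 rose, where 17.0% of all genes passed. In shRenilla, Sdc4, a syndecan, fell with a log2 change of −0.86 (SE 0.13, adjusted p = 5.7e-04, edgeR). Itga7 and Itga3, α subunits of laminin-binding integrins, also fell (log2 changes −0.42 and −0.40), calls lost in 7 and 6 of 12 leave-one-out fits. Sgcb, a sarcoglycan, rose (0.47, adjusted p = 0.0396, edgeR, and 0.0639 with length and GC trends removed), a call also lost in 7 of 12. In shBruce 5 of 19 fell and none rose, where 23.0% of all genes passed, among them Itga3 (log2 change −0.84, SE 0.12, adjusted p = 3.0e-04), Sdc4 (−0.65), Itga7 (−0.60) and Cd151 (−0.54). Itga3 had 3424, 3700.0 and 3789 normalized counts in shRenilla FM against 2831, 2784 and 2630.0 in Starv. In shBruce it had 4207, 4448 and 3761 in FM against 2511, 2410.0 and 2024 in Starv, so every starved library lay below every fed library in both lines. Itga6, which encodes another laminin-binding α subunit, had log2 differences of −0.26 in both lines and did not pass.

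Of 27 genes for other basement membrane proteins 19 were tested. In Starv 4 of 19 were lower in shBruce and none higher by edgeR's test, beside 23.9% of all genes, namely Col4a5, a collagen IV chain (−1.25, adjusted p = 0.0225), Nid2, a nidogen that bridges laminin and collagen IV (−1.07, SE 0.20, adjusted p = 0.0225), Pxdn, which cross-links collagen IV (−0.99, adjusted p = 0.0225), and Ntn1 (−0.47, adjusted p = 0.0283, and 0.0531 with length and GC trends removed). Nid2 had 821, 844 and 854 normalized counts in shRenilla FM against 430.1, 535 and 525 in shBruce FM, and 958, 909.5 and 790.1 in shRenilla Starv against 289, 393 and 577 in shBruce Starv. The lines did not overlap for Nid2 in either medium, although its FM difference of −0.76 did not pass (adjusted p = 0.246). Over both media 7 were lower and 2 higher in shBruce, with Nid2 at −0.91, Nid1 at −0.78 and Agrn at −0.49, where 32.1% of all genes passed. With length and GC trends removed 4 were lower and 1 higher, and Nid1 and Agrn no longer passed (adjusted p = 0.0721 and 0.0761, edgeR). Hspg2, the gene for perlecan, stood at −0.28 and did not pass. For starvation none of the 19 passed in shRenilla by edgeR's test, beside 17.0% of all genes, although 16 lay below 0 and 2 passed as lower with length and GC trends removed. In shBruce 5 of 19 fell, with Pxdn at −0.82 and Ntn1 at −0.67, beside 23.0% of all genes.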

How the data were processed

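Gene expression was measured by poly(A)-enriched, single-read RNA-seq in 12 libraries of MEFs, 3 for each of 4 conditions, grouped by the sample labels. Per the study's methods the authors removed ribosomal RNA reads, aligned the remainder to mm10 with STAR 2.4.0d and counted reads per gene with HTSeq 0.5.4p3. The deposited table holds raw counts per gene symbol, with every column used (0 left out). The annotation, overlap mode and strand setting used in counting are not given in the sources used here. The study's methods name TMM and voom with limma, and the submitters' processing notes R 3.2.0.

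From the counts, edgeR 4.0.16 (R 4.3.3) was run with its expression filter, TMM factors and the quasi-likelihood test in a joint fit of all 12 libraries, with Benjamini-Hochberg adjustment over 12154 genes at a level of 0.05. Contrasts compared the lines in each medium and over both, the media in each line, and their interaction. The 22 alternatives were limma-voom (limma 3.58.1), DESeq2 1.42.0 and its size factors, upper-quartile scaling, no filter, at least 10 counts in every library, only the libraries compared, a replicate block, removal of length and GC trends (splines with 4 degrees of freedom), that removal with the block, and leaving out each of the 12 libraries. The fit was tested on simulated data. Of the symbols, 22724 matched GENCODE M21 directly and 941 through other names, giving length and GC content to 99.2% of tested genes. CPM used a prior count of 2 on the log2 scale. Intervals are at the 95% level, and the floor of 3 counts covers counting error only.

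The 9 genes, the lists of receptors, basement membrane proteins, dystroglycan glycosylation enzymes and proteases, and the marker lists were chosen with earlier results of these data known. Named were all 9 genes and Birc6, Lamc3, Nid1, Nid2, Hspg2, Agrn, Dag1, Itga3, Itga6, Itga7 and Itgb1, in each list and comparison up to 4 higher and 4 lower genes with the largest change among those that passed, and the 3 genes closest in pattern to Lama4, Lamb1 and Lamc1. Sequences came from RefSeq promoter windows, GENCODE transcripts and the study's hairpin list. Fits used R and tables Python 3.11.15. Protein sequences were not used here, and some items that this rule names are not reported here.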

Additional observations from a re-analysis of the deposited data

How the results depend on the processing

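The log2 differences of laminin genes were computed 1026 times under alternatives. None that had passed reversed, 31 of the others changed sign, and 13 moved by more than 1 SD, most of them without shBruce Starv library 3 or shRenilla FM library 3.

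Counts of genes that passed depended on the processing; where no value shows why, the cause was not tested. Between lines in FM, where edgeR called 0, DESeq2 called 76 genes, no filter 7, only the libraries compared 597, and removed trends 2, with or without the replicate block; partner genes numbered 2 with DESeq2 and 8 with only the libraries compared. In Starv, 2907 genes and 13 partner genes became 0 and 0 with only the libraries compared, 1932 and 8 with the replicate block, 1004 and 7 with trends removed (639 higher and 365 lower, against 1550 and 1357), and 1 and 0 with both. Over both media, 3900 and 24 became 1732 and 13 with trends removed (1069 higher and 663 lower, against 1986 and 1914), and 1020 and 11 with the block added. With only the libraries compared, starvation called 5013 genes and 19 partners in shRenilla (2061 and 9 in the joint fit) and 956 and 6 in shBruce (2790 and 17).

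Leaving out a library gave 0 to 32 genes in FM, 0 to 5735 in Starv, 1396 to 6081 over both media, 1149 to 3212 for starvation in shRenilla and 1855 to 4009 in shBruce. For partner genes the ranges were 0 to 1, 0 to 31, 9 to 40, 5 to 12 and 11 to 24. The Starv values of 0 came without shRenilla Starv library 1 or 2 and the highest without shBruce Starv library 3; the interaction called 0 throughout.

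Replicate numbers did not pair the samples: deviations of same-numbered libraries correlated at −0.456 to 0.347 in 18 pairs, 5 of them over 0.1. With the replicate block, called partner genes in starvation of shRenilla went from 9 to 6, and the 48 laminin differences moved by less than 1 SD. Of 1254 values for the 58 partner gene results that passed, 987 still passed and 267 kept their direction without passing. At a few counts per library, Lama1, Lama2 and Lama3 allow no small difference to be seen.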

Other observations

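Of 17 genes for enzymes that build the laminin-binding sugar of dystroglycan, 16 were tested. By edgeR's test 1 fell with starvation in shRenilla and 3 in shBruce, shares below the 17.0% and 23.0% of all genes that passed. Pomgnt1, a glycosyltransferase of this pathway, had 1154, 1275 and 1194 normalized counts in shRenilla FM and 673, 606 and 672 in shRenilla Starv. In shBruce it had 1400.0, 1541 and 1277 in FM and 785, 721 and 693 in Starv, so starved and fed libraries did not overlap in either line. It fell in both lines, with log2 changes of −0.89 and −0.94 (adjusted p = 1.9e-04 and 1.1e-04, edgeR's quasi-likelihood test). Pomt2 and B3galnt2 also fell in shBruce, with log2 changes of −0.67 and −0.51. Between the lines in Starv 3 of 16 were higher in shBruce and 1 lower, beside 23.9% of all genes that passed. Dpm1, Dpm2 and Dpm3, subunits of the enzyme that supplies activated mannose, were higher by 0.48, 0.57 and 0.81, and B3galnt2 was lower, at −0.46. With length and GC trends removed only Dpm1 of these 4 passed.

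Of 11 genes for proteases that can cut laminin chains or their partners, 9 were tested. Plau, which encodes urokinase, had 964, 1071 and 1024 normalized counts in shRenilla FM and 378, 383 and 397 in shRenilla Starv. It fell in both lines, with log2 changes of −1.40 in shRenilla and −1.78 in shBruce (adjusted p = 1.4e-04 and 2.1e-05, edgeR). Furin also fell in both (−0.76 and −0.77), Mmp14 fell in shRenilla (−0.39), and Bmp1, whose protein trims laminin chains, fell in shBruce (−0.44). In each line 3 of the 9 fell, beside 17.0% of all genes that passed in shRenilla and 23.0% in shBruce. Between the lines none of the 9 passed in FM or in Starv, where 0.0% and 23.9% of all genes did. Over both media 2 of 9, Tll1 and Mmp2, were lower in shBruce, at −1.01 and −0.28, where 32.1% of all genes passed.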
